A study of Arabidopsis thaliana with 24 samples.

Results

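A group of 10 genes of cuticular wax and very-long-chain fatty acid synthesis was followed in whole Arabidopsis seedlings, in 4 genotypes under white light and after 1 hr of shade. The members are 5 β-ketoacyl-CoA synthases, KCS1 (AT1G01120), KCS2 (AT1G04220), KCS5 (AT1G25450), KCS6 (AT1G68530) and KCS20 (AT5G43760), and 5 wax enzymes, CER1 (AT1G02205), CER2 (AT4G24510), CER3 (AT5G57800), CER4 (AT4G33790) and MAH1 (AT1G57750). They were chosen by name from the known genes of the pathway, with expression values of all 24 libraries already known. All 10 loci are among the 33020 in the deposited table, and 8 of them were among the 19126 genes tested. Because of that choice, the adjusted p-values below describe the size of a difference against the spread between libraries and are not independent support.

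The seedlings were 6 days old and belonged to the mutants pif7, asf1ab and hira and to the wild type (WT, Col-0). In each genotype one group received 1 hr of shade at a red to far-red ratio of 0.4 and the other stayed in white light as the control, which gave 8 groups of 3 libraries. PIF7 is a transcription factor of the shade response, and ASF1A, ASF1B and HIRA are histone chaperones. The labels name no allele or line for the mutants, and separate cultures are not stated for the 3 libraries of a group, so p-values measure only the spread between these samples.

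The cuticle is the waxy layer that seals the outer wall of the plant epidermis. Fatty acids made in the plastid are lengthened in the endoplasmic reticulum by a complex in which a KCS enzyme performs the condensation step and sets which chain lengths are made. The long chains then become alkanes through CER1 and CER3, or primary alcohols through the reductase CER4. MAH1 oxidises alkanes to secondary alcohols and ketones. KCS6 is the main condensing enzyme for wax chains, KCS5 is its close homologue, and CER2 acts with KCS6 to reach the longest chains. KCS1 has a broad part in elongation, and KCS2 and KCS20 are known both for wax and for root suberin. In bulk samples of whole seedlings, fewer cells of a type and less RNA per cell cannot be told apart.

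The 250 bases before the gene start are shown for 3 members on which the results turn: KCS1 and CER2, which rose in shaded WT, and KCS6, which was lower in asf1ab. They were read 5′ to 3′ along the gene's own strand from the TAIR10.1 assembly. The authors' build is TAIR10, per the submitters' processing notes, and their table holds no coordinates. The windows are chr1:59216-59465 on the minus strand for KCS1, chr4:12660437-12660686 on the plus strand for CER2 and chr1:25715025-25715274 on the minus strand for KCS6. Capitals mark matches to the letters searched.
KCS1: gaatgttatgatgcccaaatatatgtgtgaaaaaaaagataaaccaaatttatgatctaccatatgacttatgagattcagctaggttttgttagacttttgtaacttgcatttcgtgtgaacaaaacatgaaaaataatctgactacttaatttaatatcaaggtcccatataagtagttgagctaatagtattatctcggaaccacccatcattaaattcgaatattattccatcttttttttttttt
CER2: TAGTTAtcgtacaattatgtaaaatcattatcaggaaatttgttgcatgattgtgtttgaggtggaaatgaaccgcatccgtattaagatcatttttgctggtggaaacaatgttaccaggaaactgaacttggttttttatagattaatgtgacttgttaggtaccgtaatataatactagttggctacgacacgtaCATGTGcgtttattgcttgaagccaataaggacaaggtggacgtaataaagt
KCS6: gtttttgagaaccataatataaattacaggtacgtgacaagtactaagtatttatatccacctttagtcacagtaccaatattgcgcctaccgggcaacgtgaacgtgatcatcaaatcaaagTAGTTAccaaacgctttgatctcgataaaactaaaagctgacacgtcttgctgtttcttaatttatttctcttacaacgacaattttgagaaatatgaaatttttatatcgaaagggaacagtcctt

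Short motifs were searched on both strands in the windows of all 10 members. The G-box CACGTG, a common site of PIF proteins, was in 0 of 10 members and in 6.5% of 27438 gene windows of the same length. The related word CACATG was in 2 of 10 members, against 11.1% of windows. Both hold it as CATGTG, CER2 at 52 bases before the start and MAH1 at 193 bases. The L1 box of epidermal genes, TAAATGTA or TAAATGCA, was in 0 of 10 members and in 4.5% of windows. TAACTA, a word of MYB factors, was in 3 of 10 members, at 127 bases before KCS6, 250 bases before CER2 and 16 bases before MAH1, and in 20.6% of windows. These words do not overlap in the windows shown, and the KCS1 window holds none of them.

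The deposited FPKM values (fragments per kilobase of transcript, scaled to the reads of the library) summed to 778266 to 893997 per library. Steps between low values gave a rough depth of 13400000 to 18400000 reads per library. Ribosomal RNA took 0.724 to 8.32% of the sum, and white-light hira replicates 1 and 2 stood apart with 8.32 and 7.27%. The highest correlation between any pair of libraries was 0.982, and no columns were identical. PIF7 and ASF1B followed the labels in both lights, and ASF1A in white light only. PIF7 averaged 1.11 ± 0.522 FPKM in white-light pif7 and 27.4 ± 2.29 FPKM in white-light WT. In white light ASF1B averaged 1.87 ± 0.194 FPKM in asf1ab and 9.50 ± 1.28 FPKM in WT, and ASF1A 9.56 ± 0.655 FPKM in asf1ab and 12.9 ± 0.649 FPKM in WT. In shade ASF1B averaged 1.82 ± 0.0907 FPKM in asf1ab and 10.5 ± 1.90 FPKM in WT, but ASF1A 14.8 ± 2.36 FPKM in asf1ab and 12.6 ± 0.668 FPKM in WT (0.21 ± 0.0978, adjusted p = 0.135, limma), so its RNA level does not check the label in shade. HIRA averaged 3.91 ± 0.404 FPKM in white-light hira and 4.88 ± 0.241 FPKM in WT (SD, n = 3 each), a difference that was not called (adjusted p = 0.0664, limma), so its RNA level does not check that label.

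KCS6 was the most abundant member per transcript length in every group. Its mean over 24 libraries was 165 FPKM, followed by KCS20 at 64.7, KCS1 at 57.6, CER3 at 48.7, CER2 at 42.3, KCS5 at 20.4, CER1 at 12.2 and KCS2 at 2.33 FPKM. In white-light WT, KCS20 (43.6 to 63.1 FPKM), CER3 (47.6 to 51.1 FPKM) and KCS1 (34.5 to 52.2 FPKM) overlapped, so these neighbours in the order do not differ beyond their spread. KCS6 made up 26.0% of the members' summed FPKM in shaded asf1ab, against 41.4% in shaded WT, and 31.2% in white-light asf1ab, against 49.7% in white-light WT. The order of the lower members changed little, with KCS5, CER1 and KCS2 in the last places among the 8 members tested in all groups.

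MAH1, the midchain alkane hydroxylase, was listed at 0 in all 24 libraries. CER4, the alcohol-forming reductase, lay between 0 and 0.3 FPKM with a mean of 0.0771 FPKM, an estimated 0 to 9 reads per library. Neither reached the mean of 1 FPKM asked of a gene before testing. Each of the 3 shaded pif7 libraries lists CER4 at 0, against 0.27, 0.08 and 0.3 FPKM in white-light pif7. With no filter on low values limma called that difference (-0.28 ± 0.0797, adjusted p = 0.0127), and no other difference of CER4 among the 13 contrasts. It rests on a few estimated reads. KCS2 is the least expressed member that was tested, at an estimated 38 to 127 reads per library, and KCS6 the best covered, at 3203 to 11015 reads.

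**Figure D1:**
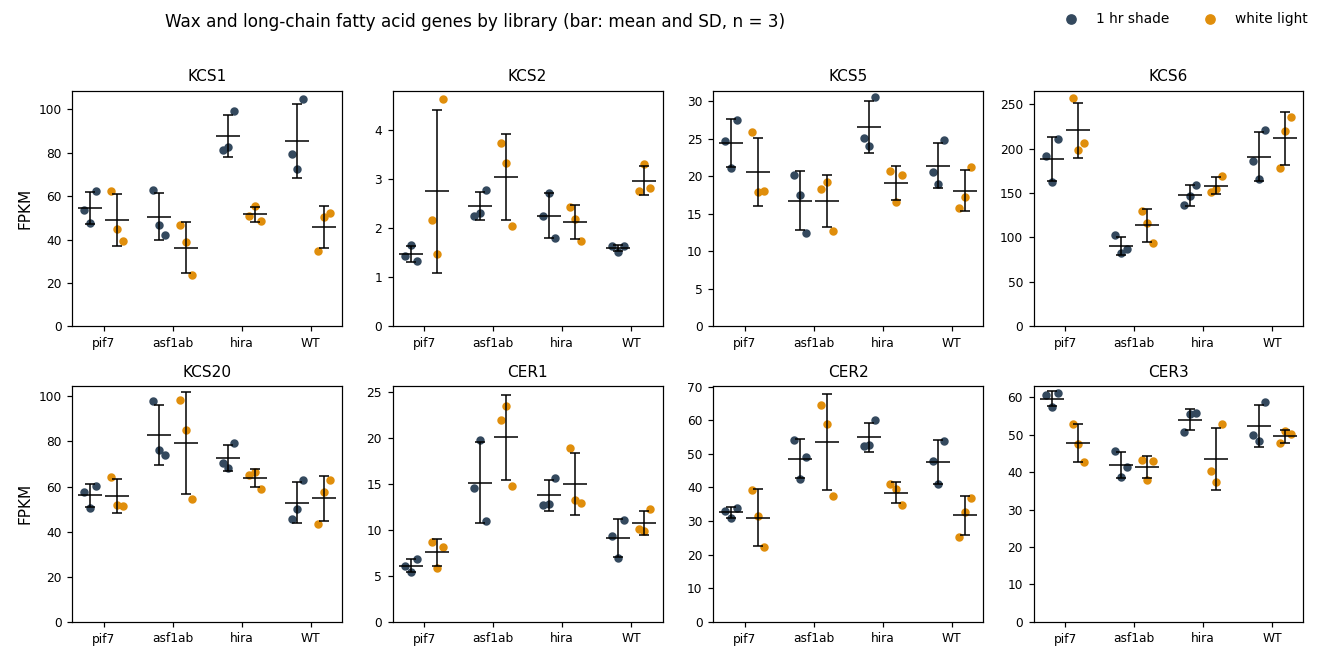
FPKM of the 8 members tested, in each library. Points are libraries, bars the mean and SD of 3, with shade (dark) left of white light (orange) in each genotype; KCS1 lies highest in shaded hira and WT, and KCS6 lowest in asf1ab under both lights.

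After 1 hr of shade, WT seedlings had more KCS1 and CER2 RNA and less KCS2 RNA. KCS1 had 79.3, 72.4 and 105 FPKM in shaded WT, against 34.5, 50.3 and 52.2 FPKM in white-light WT. All shaded libraries lay above all white-light ones, by 0.89 ± 0.224 log2 units (SE, adjusted p = 0.00528). CER2, the partner of KCS6, had 47.8, 41.0 and 53.9 FPKM in shaded WT, against 25.3, 32.8 and 36.9 FPKM in white light. These groups did not overlap either, and the rise was 0.58 ± 0.192 (adjusted p = 0.0308). KCS2 had 1.64, 1.52 and 1.63 FPKM in shaded WT, against 2.77, 3.32 and 2.83 FPKM in white light, a fall of -0.61 ± 0.215 (adjusted p = 0.0415) with no overlap. Changes are on the scale of log2(FPKM + 1), which understates the change of a low gene such as KCS2, and come from limma across all genes with Benjamini-Hochberg adjustment.

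The other 5 members tested in WT lay between -0.23 for CER1 and 0.23 for KCS5, and none of them was called. In all, 2 members were higher and 1 was lower of 8, where 14.9% of all genes tested were higher and 11.4% lower. The members' median change was 0.01, against 0.01 over all genes. The KCS1 change stayed called in each of its 14 alternative settings, at 0.71 to 1.00. The CER2 call was lost in 5 of 14 settings, among them without white-light WT replicate 1 (0.43, adjusted p = 0.151) and without shaded WT replicate 3 (0.49, adjusted p = 0.122). The KCS2 call was lost in 9 of 13, including without any one of the 6 libraries, and with a pseudocount of 5 its change was -0.27.

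In hira, KCS1 and CER2 were again higher after shade, and CER3 was also called. KCS1 had 81.3, 82.7 and 99.0 FPKM in shaded hira, against 50.8, 55.4 and 48.7 FPKM in white-light hira, a rise of 0.75 ± 0.224 (adjusted p = 0.0138). CER2 had 52.5, 52.5 and 60.0 FPKM in shade, against 41.0, 39.5 and 34.9 FPKM in white light (0.50 ± 0.192, adjusted p = 0.0470). Neither gene's groups overlapped. CER3, which acts with CER1 in alkane formation, had 50.8, 55.5 and 55.9 FPKM in shaded hira, against 40.2, 37.3 and 53.0 FPKM in white light. Its change was 0.32 ± 0.110 (adjusted p = 0.0278), and the groups overlapped through white-light replicate 3. KCS5 and KCS20 also lay higher in every shaded hira library than in any white-light one without a call, KCS5 at 0.45 ± 0.184 (adjusted p = 0.0627).

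The count in hira was 3 members higher and 0 lower of 8 by limma, beside 26% of all genes higher and 9.55% lower. The all-gene median in that comparison was 0.14 and the members' median 0.25. When libraries were rescaled by the median of ratios, 14.4% of all genes were higher and 14.6% lower, and 0 of the 8 members kept a call. KCS1 then stood at 0.59 (adjusted p = 0.0638), CER2 at 0.35 (adjusted p = 0.222) and CER3 at 0.17 (adjusted p = 0.318). The white-light hira libraries held more ribosomal RNA, 6.27 ± 2.70%, against 2.11 ± 0.608% in white-light WT, and 2.30 ± 0.802% plastid transcripts, against 0.873 ± 0.0282% (SD, n = 3 each). Without white-light hira replicates 1 and 2, KCS1 differed by 0.83, CER2 by 0.64 and CER3 by 0.03. That run leaves replicate 3 alone in its group, so only sizes are given. The part of these shares in the results was not tested beyond that. The KCS1 call was also lost without shaded hira replicate 3 (adjusted p = 0.0572), and the CER2 call without any one of the 6 libraries. The CER3 call was lost without white-light replicate 1 or 2, or without shaded replicate 2 or 3.

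In pif7, CER3 was the 1 member called. It had 60.5, 57.3 and 61.2 FPKM in shaded pif7, against 52.9, 47.4 and 42.8 FPKM in white light, a rise of 0.32 ± 0.110 (adjusted p = 0.0240) without overlap. KCS1 had 53.5, 47.7 and 62.4 FPKM in shaded pif7, against 62.6, 44.9 and 39.4 FPKM in white light, and these groups overlapped (0.17 ± 0.224). CER2 likewise overlapped, at 32.6 ± 1.58 and 31.0 ± 8.50 FPKM (0.11 ± 0.192). All-gene shares were 29.9% higher and 13.6% lower, and the all-gene median of 0.12 exceeded the members' median of 0.06. After rescaling the shares were 18.8% and 18.7%, and CER3 stood at 0.19 (adjusted p = 0.214), while KCS2 was called at -0.59 (adjusted p = 0.0311). The CER3 call also went without white-light pif7 replicate 2 or 3, or without shaded replicate 1 or 3. KCS2 was also called by limma without white-light pif7 replicate 2 (-0.77, adjusted p = 0.00789).

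In asf1ab, 0 of 8 members were called by limma after shade, with 2 below an unadjusted p of 0.05, beside 18.8% of all genes higher and 12.3% lower. KCS1 had 62.9, 46.9 and 42.1 FPKM in shaded asf1ab, against 46.7, 38.7 and 23.5 FPKM in white light (0.50 ± 0.224, adjusted p = 0.0983). KCS6 had 102, 82.4 and 86.6 FPKM in shade, against 130.0, 117 and 93.8 FPKM in white light (-0.32 ± 0.143, adjusted p = 0.101). Both pairs of groups overlapped. White-light asf1ab replicate 3 was the lowest library of its group in 7 of the 8 members. Without it, KCS6 was called at -0.45 (adjusted p = 0.0310) and CER1 at -0.59 (adjusted p = 0.0487). KCS1 was called at 0.71 without white-light replicate 1 (adjusted p = 0.0302), and CER1 at -0.60 without shaded replicate 2 (adjusted p = 0.0473).

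Markers of the tissues in the seedling also differed between the lights. The 6 epidermis markers summed to 831 ± 66.2 FPKM in shaded pif7 (764 to 896), against 1460.0 ± 205 FPKM in white-light pif7 (1338 to 1697), with 0 higher and 2 lower. LTP1, a lipid transfer protein, was lower by -1.09 ± 0.161 and PDF2, an epidermal regulator, by -0.48 ± 0.102. The 4 mesophyll markers summed to 25954 ± 1116 FPKM in shaded pif7, against 40425 ± 6009 FPKM in white light, with 0 higher and 3 lower. In hira the epidermis sum was 978 ± 113 FPKM in shade and 1295 ± 129 FPKM in white light, with 2 lower, and the mesophyll sum 33209.7 ± 837 and 45883 ± 9475 FPKM, with 2 lower. In asf1ab the epidermis sum was 582 ± 73.3 FPKM in shade and 959 ± 213 FPKM in white light, with 2 lower, and 0 of the 4 mesophyll markers were called, with 0 below an unadjusted p of 0.05. In WT the epidermis sum was 1133 ± 117 FPKM in shade and 1358 ± 222 FPKM in white light, with 1 lower, and the mesophyll sum 41569 ± 2418 and 33602 ± 1504 FPKM, with 1 higher (SD, n = 3 each). The root marker SCR was lower in every genotype (-0.22 in pif7, -0.62 in asf1ab, -0.43 in hira and -0.26 in WT). PHT1;1 was lower in asf1ab (-0.81) and WT (-0.98), and CASP1 and EXT3 were not called. The guard cell marker KAT1 was higher in asf1ab (1.54), hira (1.91) and WT (1.89), where MYB60 was lower. SPCH was lower in pif7 (-0.37), and FAMA was not called. Some calls of SCR, PHT1;1 and MYB60, and that of SPCH, were lost on leaving out a library. The part of these markers in the shade results of the members was not tested.

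**Figure D2:**
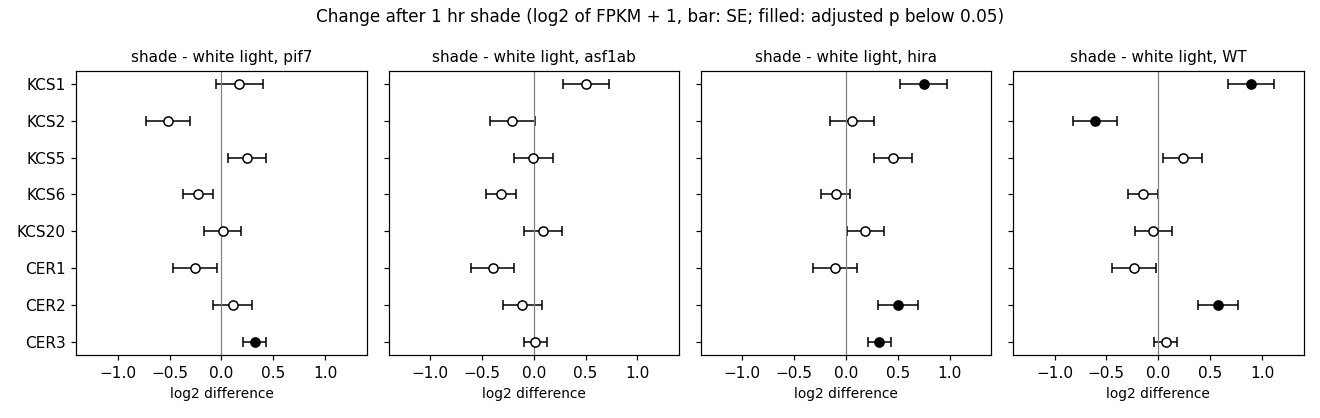
Change after 1 hr of shade (shade minus white light) of the 8 members in each genotype, in log2(FPKM + 1) units. Points are limma estimates, bars their SE, and filled points have an adjusted p below 0.05; KCS1 and CER2 are filled in hira and WT, CER3 in pif7 and hira, and KCS2 in WT.

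How far a mutant responded differently from WT was tested directly, and limma called 0 of 8 members in each of the 3 mutants. One member in each fell below an unadjusted p of 0.05. KCS1 responded less in pif7 by -0.72 ± 0.317 (adjusted p = 0.166), CER2 less in asf1ab by -0.69 ± 0.271 (adjusted p = 0.406), and KCS2 differed in hira by 0.67 ± 0.304 (adjusted p = 0.246). The calls listed above in some genotypes and not in others are therefore not shown to differ between genotypes. Over all genes, 3.13% responded more and 2.98% less in pif7 than in WT, 0.173% and 0.288% in asf1ab, and 0.607% and 0.685% in hira. Rescaling moved these shares to 1.54% and 3.85% in pif7 and to 0.267% and 1.08% in hira. The 4 shade comparisons each have their own libraries, but the 3 differences share the WT libraries and are not independent of one another.

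Among the members tested, the largest difference of a mutant from WT was in KCS6, whose RNA was lower in asf1ab than in WT in both lights. In shade it had 102, 82.4 and 86.6 FPKM in asf1ab, against 186, 166 and 221 FPKM in WT. The asf1ab libraries all lay below the WT ones, by -1.07 ± 0.143 log2 units (adjusted p = 2.17e-05). In white light KCS6 had 130.0, 117 and 93.8 FPKM in asf1ab, against 178, 219.7 and 236 FPKM in WT, again without overlap (-0.89 ± 0.143, adjusted p = 0.000181). Both calls stayed in each of their 14 alternative settings. Its close homologue KCS5 was not called, at -0.35 ± 0.184 in shade and -0.12 ± 0.184 in white light.

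Some markers of the epidermis, the tissue that makes wax, were also lower in asf1ab, more of them in shade than in white light. All 6 listed markers were tested, and none was at 0. Their summed FPKM was 582 ± 73.3 in shaded asf1ab (498 to 636), against 1133 ± 117 in shaded WT (1059.5 to 1268). In white light it was 959 ± 213 in asf1ab (726 to 1142), against 1358 ± 222 in WT (1110.5 to 1540.3; SD, n = 3 each). LTP1 gives the largest part of that sum and was lower by -1.44 ± 0.161 in shade (adjusted p = 2.85e-06) and -0.73 ± 0.161 in white light (adjusted p = 0.00297). The epidermal regulators ATML1 (-0.45 ± 0.108) and PDF2 (-0.40 ± 0.102) were lower in shaded asf1ab, PDF2 with an adjusted p of 0.0506 without WT replicate 3, and PDF1, ACR4 and KCS10 were not called. In white light LTP1 was the only marker called. There ATML1 and PDF2 stood at -0.12 each and ACR4 at -0.07, with PDF1 at 0.14 and KCS10 at 0.09. Of all genes tested, 15.8% were lower in asf1ab in each light. The part of these markers in the KCS6 result was not tested.

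CER1 was higher in asf1ab than in WT in both lights, CER2 in white light and KCS20 in shade. CER1 had 22.0, 23.5 and 14.8 FPKM in white-light asf1ab, against 10.1, 9.85 and 12.3 FPKM in WT, without overlap (0.82 ± 0.208, adjusted p = 0.00780), a call that stayed in all 14 settings. In shade CER1 had 14.6, 19.8 and 11.02 FPKM in asf1ab, against 9.31, 6.94 and 11.04 FPKM in WT, where the lowest asf1ab library met the highest of WT (0.66 ± 0.208, adjusted p = 0.0251). That call was lost in 5 of 14 settings, to an adjusted p of 0.154 without shaded asf1ab replicate 2, and also without asf1ab replicate 1, without WT replicate 1 or 2 and with only the groups compared in the fit.

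KCS20, the suberin and wax synthase, had 98.1, 76.3 and 73.8 FPKM in shaded asf1ab, against 45.5, 49.9 and 63.0 FPKM in shaded WT. The groups did not overlap (0.64 ± 0.181, adjusted p = 0.0138), and the call was lost without shaded WT replicate 1 (adjusted p = 0.0710) or asf1ab replicate 1 (adjusted p = 0.0814). In white light KCS20 had 98.3, 85.0 and 54.6 FPKM in asf1ab, against 43.6, 57.6 and 63.1 FPKM in WT, with an overlap through asf1ab replicate 3 (0.50 ± 0.181, adjusted p = 0.0531). Without that replicate the difference was called at 0.75 (adjusted p = 0.00344), and after rescaling at 0.59 (adjusted p = 0.0294). Root markers, of which 4 of 5 could be tested and PLT1 was near 0 (mean 0.137 FPKM), summed to 101 ± 40.8 FPKM in shaded asf1ab (70.7 to 147), against 181 ± 21.3 FPKM in shaded WT (157 to 199), with 0 higher and 1 lower. In white light they summed to 123 ± 26.8 FPKM in asf1ab (98.5 to 152), against 195 ± 58.8 FPKM in WT (129.9 to 244). The lower marker in shade was CASP1 (-1.38 ± 0.231). In white light limma called CASP1 lower (-1.25 ± 0.231, adjusted p = 0.000711) and SCR higher (0.33 ± 0.0792, adjusted p = 0.00573). The lower CASP1 level was not particular to asf1ab. In pif7 limma also called CASP1 below WT, in shade (-1.32 ± 0.231, adjusted p = 0.00087) and in white light (-1.58 ± 0.231, adjusted p = 0.00146). In hira it stood at -0.52 in shade and -0.51 in white light, without a call. Of all genes tested, 9.13% were higher and 15.8% lower in shade, and 6.26% and 15.8% in white light. The part of the root markers in the KCS20 values was not tested.

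CER2 had 64.5, 59.0 and 37.3 FPKM in white-light asf1ab, against 25.3, 32.8 and 36.9 FPKM in white-light WT. The lowest asf1ab library lay just above the highest of WT (0.72 ± 0.192, adjusted p = 0.0109). In shade its groups overlapped, at 48.6 ± 5.76 and 47.6 ± 6.46 FPKM (0.03 ± 0.192). The white-light call was lost without WT replicate 1, without asf1ab replicate 1 or 2, and with only the groups compared in the fit (adjusted p = 0.1003).

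KCS1 and CER3 were lower in shaded asf1ab than in shaded WT. KCS1 had 62.9, 46.9 and 42.1 FPKM in asf1ab, against 79.3, 72.4 and 105 FPKM in WT, without overlap (-0.75 ± 0.224, adjusted p = 0.0195). CER3 had 45.6, 38.7 and 41.3 FPKM in asf1ab, against 50.03, 48.3 and 58.6 FPKM in WT, also without overlap (-0.31 ± 0.110, adjusted p = 0.0430). The KCS1 call was lost without shaded WT replicate 3 (adjusted p = 0.105) or asf1ab replicate 2 or 3, and the CER3 call in 7 of 14 settings, after rescaling (-0.27, adjusted p = 0.0996) and without WT replicate 1 or 3 or asf1ab replicate 2 or 3 among them. In white light KCS1 differed by -0.35 ± 0.224 and CER3 by -0.26 ± 0.110 (adjusted p = 0.0995), and neither was called.

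In asf1ab against WT, 2 members were higher and 3 lower of 8 in shade, where 9.13% of all genes were higher and 15.8% lower. In white light 2 were higher and 1 lower, where 6.26% of all genes were higher and 15.8% lower. Rescaling moved the white-light shares to 9.83% and 11.9%. The members' medians were -0.14 in shade and -0.06 in white light, against -0.03 and -0.07 over all genes.

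In hira against WT limma called 0 of 8 members in either light. In shade 3 were below an unadjusted p of 0.05, beside 4.96% of all genes higher and 6.59% lower. In white light there was 1, beside 2.61% of all genes higher and 9.03% lower, or 4% and 3.4% after rescaling. KCS6 had 136, 147 and 160 FPKM in shaded hira, against 186, 166 and 221 FPKM in shaded WT (-0.36 ± 0.143, adjusted p = 0.105). In white light it had 151, 154 and 169 FPKM in hira, against 178, 219.7 and 236 FPKM in WT (-0.41 ± 0.143, adjusted p = 0.0681). KCS6 groups did not overlap in either light. KCS20 (0.46 ± 0.181, adjusted p = 0.104) and CER1 (0.56 ± 0.208, adjusted p = 0.0865) were above every WT library in shaded hira without a call. The white-light KCS6 difference was called without WT replicate 1 (adjusted p = 0.0438) or hira replicate 3 (adjusted p = 0.0486), and CER3 was called without hira replicate 3 (-0.35, adjusted p = 0.0169).

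In pif7 against WT limma also called 0 of 8 members in either light. In shade 3 were below an unadjusted p of 0.05, beside 10.2% of all genes higher and 6.31% lower, or 5.27% and 8.05% after rescaling. In white light there was 1, beside 0.11% higher and 0.288% lower. KCS1 had 53.5, 47.7 and 62.4 FPKM in shaded pif7, against 79.3, 72.4 and 105 FPKM in shaded WT (-0.63 ± 0.224, adjusted p = 0.0603). CER2 had 32.9, 30.9 and 34.0 FPKM in shaded pif7, against 47.8, 41.0 and 53.9 FPKM in WT (-0.52 ± 0.192, adjusted p = 0.0664). Both genes had every pif7 library below every WT library, and both passed when only these groups entered the fit (adjusted p = 0.0358 for KCS1 and 0.0174 for CER2). KCS1 also passed after rescaling (-0.72, adjusted p = 0.0465). CER1 had 6.11, 5.41 and 6.82 FPKM in shaded pif7, against 9.31, 6.94 and 11.04 FPKM in WT (-0.49 ± 0.208, adjusted p = 0.110). In white light CER1 had 8.66, 5.87 and 8.14 FPKM in pif7, against 10.1, 9.85 and 12.3 FPKM in WT (-0.47 ± 0.208, adjusted p = 0.543). CER1 was thus below WT in every pif7 library of both lights, without a call.

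**Figure D3:**
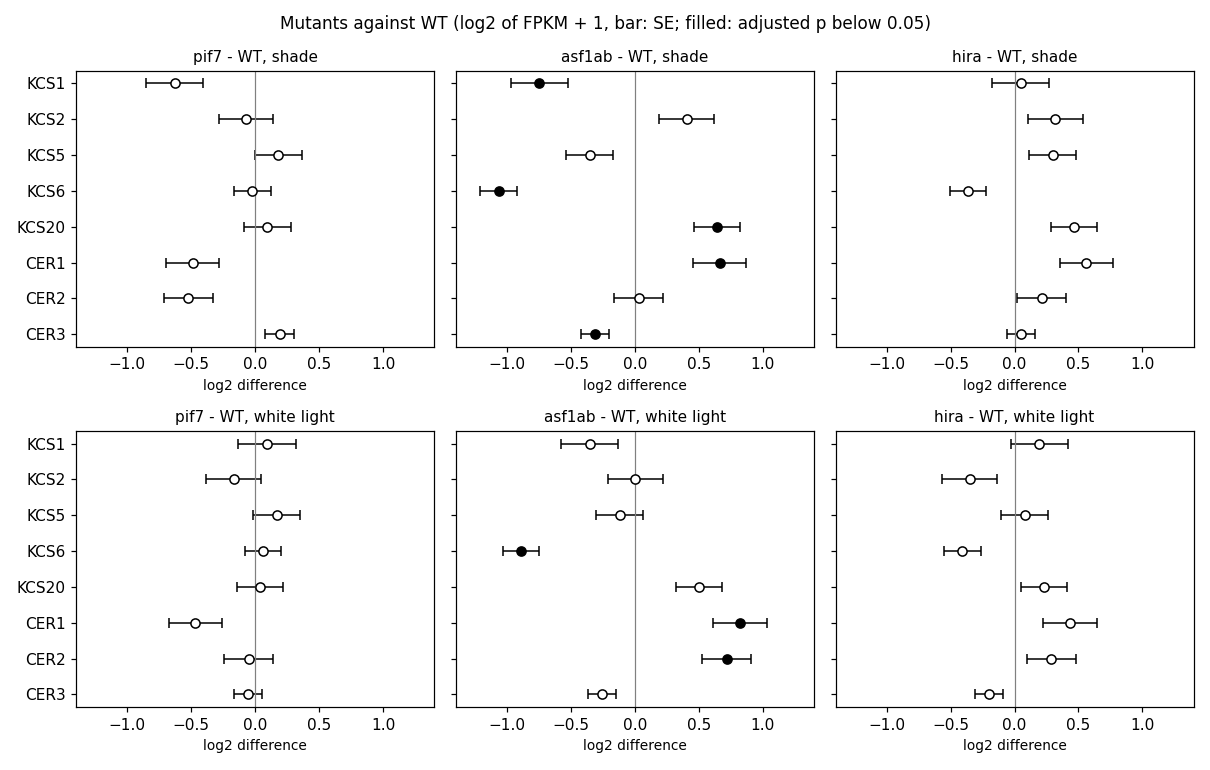
Mutant minus WT for the 8 members, in shade (top) and white light (bottom), in log2(FPKM + 1) units. Points are limma estimates, bars their SE, and filled points have an adjusted p below 0.05; the filled points lie in asf1ab, with KCS6 farthest left at -1.07 in shade and -0.89 in white light.

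The members did not vary as one group. Over the 8 group means, the 28 pairs of members had a median Pearson r of -0.12, with 4 pairs above 0.7 and 4 below -0.7. KCS6 ran opposite to KCS20 (r = -0.95 over 8 group means, -0.51 over 24 libraries), to CER1 (-0.75 and -0.58) and to CER2 (-0.72 and -0.43). KCS20 ran with CER1 (0.80 and 0.71) and with CER2 (0.71 and 0.75), KCS5 with CER3 (0.86 and 0.69), and KCS1 with KCS5 (0.75 and 0.77). CER1 and CER3, which act together in alkane formation, ran opposite to each other (-0.76 and -0.59). These correlations are descriptions, and all points share the libraries and their depth. Within groups, single libraries moved many members at once: white-light WT replicate 1 was the lowest of its group in 7 of 8 members, and shaded WT replicate 3 the highest in 7.

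Members with close relatives were also summed, because how reads shared by similar genes were counted is not stated. The KCS5 and KCS6 proteins are 88.6% identical and their coding sequences 81.3%, with a longest shared run of 23 bases. Their summed level was 107 ± 13.3 FPKM in shaded asf1ab and 212 ± 30.5 FPKM in shaded WT, and 130.2 ± 21.4 and 229 ± 31.9 FPKM in white light. KCS2 and KCS20 are 89.9% identical as proteins and 84.0% as coding sequences, with a shared run of 53 bases, so a share of the low KCS2 value could come from reads of KCS20. Their sum was 85.2 ± 13.1 FPKM in shaded asf1ab and 54.4 ± 9.14 FPKM in shaded WT. CER1 and its relative CER1L1 share 59.2% of residues, and their sum was 20.4 ± 4.69 FPKM in white-light asf1ab and 10.9 ± 1.38 FPKM in WT (SD, n = 3 each). In each of these comparisons the sum kept the direction of its more abundant member.

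The counts of related genes below are read beside the shares of all genes after shade given above, and nothing particular to a list follows from a count near them. Among the 16 other KCS genes, 10 could be tested. After shade, 4 were higher and 0 lower in pif7, where 29.9% of all genes were higher and 13.6% lower, and 3 were higher after rescaling. In asf1ab (18.8% and 12.3% of all genes), hira (26% and 9.55%) and WT (14.9% and 11.4%), 2 were higher and 0 lower. KCS11 was called in all 4 genotypes, at 0.63 ± 0.105 in pif7, 0.68 ± 0.105 in asf1ab, 0.78 ± 0.105 in hira and 0.80 ± 0.105 in WT. It averaged 15.3 ± 0.0954 FPKM in shaded WT and 8.39 ± 0.384 FPKM in white-light WT. KCS12 rose in WT (0.72 ± 0.206) and pif7 (0.84 ± 0.206), and KCS9, a synthase of intermediate chain lengths, in pif7 (0.33 ± 0.117), asf1ab (0.47 ± 0.117) and hira (0.69 ± 0.117). KCS8 was called in pif7, at 19.3 ± 3.19 FPKM in shade and 10.2 ± 3.23 FPKM in white light (0.89 ± 0.240, adjusted p = 0.00618). After rescaling the KCS9 change in pif7 was 0.20 (adjusted p = 0.252). Against WT in shade, KCS12 (-0.65 ± 0.206) and KCS19 (-0.55 ± 0.183) were lower in asf1ab, KCS19 with an adjusted p of 0.0540 after rescaling. Both of these calls were lost without shaded WT replicate 1 or 3 or asf1ab replicate 2, and that of KCS19 also without asf1ab replicate 3. The KCS12 rise in WT was lost without white-light replicate 1 or shaded replicate 3, and the KCS9 rise in pif7 without any one library other than white-light replicate 1.

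Of 6 genes listed for the other elongation steps and their CoA substrates, 5 could be tested. After shade in asf1ab 0 were higher and 3 lower: KCR1, the ketoacyl reductase (-0.62 ± 0.127), CER10, the enoyl reductase (-0.47 ± 0.130), and PAS2, the dehydratase (-0.36 ± 0.123). In WT limma called 0 of the 5, with 2 below an unadjusted p of 0.05. The response in asf1ab was not called as different from that of WT by limma for any of the 3. It differed by -0.34 for KCR1 (adjusted p = 0.608), -0.21 for PAS2 (adjusted p = 0.812) and -0.15 for CER10 (adjusted p = 0.894). KCR1 averaged 27.9 ± 2.90 FPKM in shaded asf1ab and 43.5 ± 4.91 FPKM in white-light asf1ab. The CER10 call was lost without white-light asf1ab replicate 2 (adjusted p = 0.0579), and the PAS2 call without white-light replicate 1 or 2 or shaded replicate 3. In pif7 0 were higher and 1 lower, ACC1, the carboxylase that supplies malonyl-CoA (-0.33 ± 0.103). After rescaling 4 were lower in pif7, KCR1 at -0.43 among them, and 1 was lower in hira, against 0.

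Of 11 other wax genes, 5 could be tested. After shade 0 were higher and 3 lower in pif7, 0 and 1 in asf1ab, 1 and 0 in hira, and 1 and 0 in WT, and rescaling moved none of these counts. The gene that was higher in hira and WT, FAR1 (AT5G22500), is a fatty acyl reductase that forms primary alcohols and is known from suberin. It had 16.1, 12.3 and 16.5 FPKM in shaded WT, against 4.47, 4.65 and 5.86 FPKM in white-light WT (1.41 ± 0.170, adjusted p = 3.38e-06). In hira it had 18.5, 19.7 and 18.5 FPKM in shade, against 9.80, 7.08 and 5.36 FPKM in white light (1.27 ± 0.170, adjusted p = 9.47e-06). In asf1ab it had 11.95, 10.75 and 11.31 FPKM in shade, against 9.61, 9.09 and 5.94 FPKM in white light, without overlap or a call (0.44 ± 0.170, adjusted p = 0.0538). In pif7 it had 4.13, 5.26 and 4.42 FPKM in shade, against 5.09, 4.55 and 5.65 FPKM in white light, and these overlapped. The response in pif7 was smaller than in WT by -1.53 ± 0.241 (adjusted p = 0.000593). FAR1 was the 1 gene of the 5 called for that difference, and in shaded pif7 against shaded WT it stood at -1.50 ± 0.170 (adjusted p = 5.44e-06). The genes lower after shade in pif7 were FAR5, another reductase known from suberin (-1.01 ± 0.221, adjusted p = 0.00132), CER26, a relative of CER2 (-0.62 ± 0.217, adjusted p = 0.0279), and CER26L (-0.58 ± 0.196, adjusted p = 0.0233). CER26 was also lower in asf1ab, at 18.1 ± 1.71 FPKM in shade and 34.4 ± 8.09 FPKM in white light (-0.87 ± 0.217, adjusted p = 0.00439). The pif7 calls of CER26 and CER26L were lost without white-light replicate 1 or shaded replicate 1, that of CER26 also without shaded replicate 2 and that of CER26L without white-light replicate 3.

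Of 6 wax and cutin export genes, 0 were higher and 1 lower after shade in WT, 2 lower in pif7, 2 lower in asf1ab and 0 called in hira by limma, where 1 was below an unadjusted p of 0.05. CER5, a transporter of wax to the surface, fell in WT (-0.47 ± 0.153), pif7 (-0.50 ± 0.153) and asf1ab (-0.86 ± 0.153). In hira it stood at -0.37 and was called after rescaling (-0.53, adjusted p = 0.0205). Rescaling also added a call of LTPG1, another gene of this list, as lower in pif7 (-0.56, adjusted p = 0.0233, limma). Of 12 cutin genes tested, 1 was higher and 1 lower in shaded WT, 0 and 4 in pif7, 0 and 2 in asf1ab, and 1 and 0 in hira. After rescaling the counts were 0 and 5 in pif7, 0 and 3 in asf1ab and 0 and 1 in hira, as CYP86A8, an oxidase of cutin monomers, lost its call in hira (0.24, adjusted p = 0.0698) and LACS2 gained one (-0.53, adjusted p = 0.0338). BDG, an extracellular cutin enzyme, rose in WT (0.63 ± 0.158) and fell in pif7 (-0.45 ± 0.158), and its response differed in pif7 by -1.08 ± 0.224 (adjusted p = 0.00795). LACS2, an acyl-CoA synthetase of cutin, fell in WT (-0.66 ± 0.177), pif7 (-0.84 ± 0.177) and asf1ab (-0.95 ± 0.177). Calls lost on leaving out a library were those of CER5 in WT (white-light replicate 2 or 3, shaded replicate 1 or 2) and in pif7 (white-light replicate 1, shaded replicate 2), of BDG in pif7 (white-light replicate 1, shaded replicate 1 or 2) and of LACS2 in WT (shaded replicate 1). The BDG difference in response was kept without each library in turn.

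Plastid fatty acid synthesis, the supply of the pathway, had 4 genes higher and 1 lower of 12 after shade in WT, 2 and 2 in pif7, 4 and 1 in asf1ab, and 3 and 0 in hira. After rescaling the counts were 1 and 3 in pif7, 3 and 1 in asf1ab and 1 and 1 in hira. FATB, the thioesterase that releases saturated chains, rose in all 4 genotypes, by 0.49 ± 0.0742 in pif7, 0.67 ± 0.0742 in asf1ab, 0.80 ± 0.0742 in hira and 0.59 ± 0.0742 in WT. It averaged 62.6 ± 1.95 FPKM in shaded WT and 41.3 ± 3.46 FPKM in white-light WT. Of 8 suberin genes tested, 1 was higher and 1 lower in shaded WT, 1 and 3 in pif7, 1 and 1 in asf1ab, and 2 and 0 in hira, or 1 and 4 in pif7 and 0 and 1 in asf1ab after rescaling. FAR1 is the higher one in WT. FAR1, FAR4 and FAR5 belong to both this list and that of the other wax genes, so the counts of these lists share genes.

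Regulators of wax and cuticle genes were called in both directions. Of 10 tested, 1 was higher and 1 lower in shaded WT, 5 and 1 in pif7, 3 and 3 in asf1ab, and 5 and 3 in hira. After rescaling the counts were 2 and 1 in pif7, 2 and 3 in asf1ab and 1 and 3 in hira. DEWAX, a repressor of wax genes, had 73.7, 67.0 and 68.8 FPKM in shaded hira, against 10.9, 11.7 and 29.3 FPKM in white-light hira (2.09 ± 0.22). In asf1ab it had 102, 97.9 and 90.1 FPKM in shade, against 21.2, 24.2 and 26.7 FPKM in white light (1.97 ± 0.22). It also rose in pif7, to 117, 117 and 139 FPKM in shade, against 51.9, 59.4 and 54.8 FPKM in white light (1.15 ± 0.22). In WT it had 80.0, 81.6 and 69.2 FPKM in shade, against 61.9, 51.5 and 56.8 FPKM in white light (0.43 ± 0.22, not called). By limma the response exceeded that of WT by 1.66 ± 0.311 in hira (adjusted p = 0.0108) and by 1.53 ± 0.311 in asf1ab (adjusted p = 0.0321). In pif7 that difference was 0.72 ± 0.311, without a call (adjusted p = 0.162). Shaded pif7 was called above shaded WT (0.68 ± 0.22, adjusted p = 0.0398), a call lost after rescaling and without any one of the 6 libraries. In white light DEWAX was lower than in WT, by -1.79 ± 0.22 in hira and -1.21 ± 0.22 in asf1ab, and in white-light hira its 2 lowest libraries are those with the most ribosomal RNA. Without them, which leaves replicate 3 alone in that group, the hira response exceeded that of WT by 0.79. The asf1ab difference in response was lost without any one of 10 of its 12 libraries, at 1.45 to 1.60, and the part of the ribosomal RNA was not tested further.

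MYB96, an activator of wax genes, had 17.2, 17.8 and 22.1 FPKM in shaded WT, against 11.5, 13.8 and 14.4 FPKM in white-light WT (0.49 ± 0.125, adjusted p = 0.00591). In hira it had 14.8, 16.1 and 19.4 FPKM in shade, against 24.5, 25.2 and 21.2 FPKM in white light (-0.47 ± 0.125, adjusted p = 0.00622). Neither pair overlapped, and the responses differed by -0.97 ± 0.177 (adjusted p = 0.00908). Against WT, limma called MYB96 higher in hira in white light (0.79 ± 0.125, adjusted p = 0.000416) but not in shade (-0.17 ± 0.125, adjusted p = 0.399). Without white-light hira replicates 1 and 2, which leaves replicate 3 alone, the MYB96 change in hira was -0.33 and the difference in response -0.82. In shaded asf1ab it was lower than in shaded WT by -0.68 ± 0.125 (adjusted p = 0.000523). MYB106, an activator of cuticle formation, fell after shade in all 4 genotypes, by -0.55 ± 0.128 in pif7, -0.69 ± 0.128 in asf1ab, -0.67 ± 0.128 in hira and -0.82 ± 0.128 in WT. Its response was not called as different from that of WT in pif7 (0.27, adjusted p = 0.375), asf1ab (0.13, adjusted p = 0.903) or hira (0.15, adjusted p = 0.691). MYB16, its close relative, was higher than in WT in shaded pif7 (0.55 ± 0.0965), shaded hira (0.40 ± 0.0965) and white-light asf1ab (0.32 ± 0.0965). The second call was lost without shaded WT replicate 1, and the third without white-light WT replicate 1 or 3 or asf1ab replicate 1 or 2. The MYB106 change in hira was -0.52 without white-light replicates 1 and 2, with replicate 3 alone in that group.

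**Figure D4:**
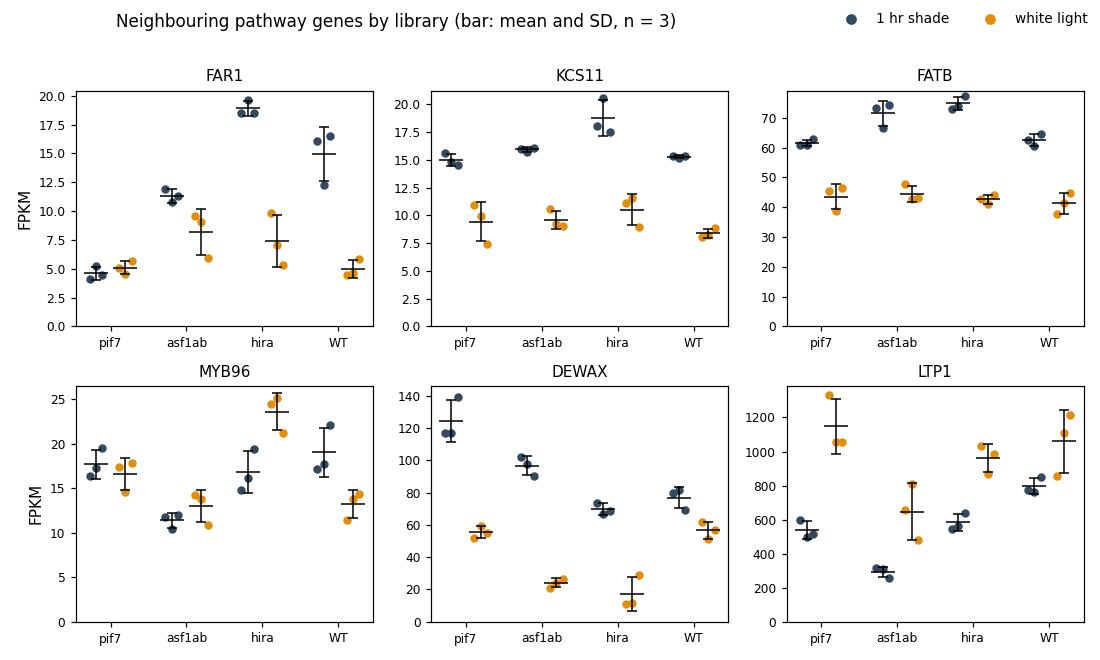
FPKM of 6 genes of neighbouring steps in each library. Points are libraries, bars the mean and SD of 3, with shade (dark) left of white light (orange); FAR1 is low in both lights in pif7, DEWAX is lowest in white-light hira and asf1ab, and LTP1, an epidermis marker, is lowest in shaded asf1ab.

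The mean standardised level of the 8 members was highest in shaded hira, at 0.78 SD units, and lay between -0.24 and 0.08 in the other 7 groups. The 5 genes outside the lists whose group means followed that average most closely, among 8963 candidates, were AT1G56150 (r = 0.88), AT5G48460 (0.87), UGD2 (0.85), AT3G24480 (0.85) and AT1G70880 (0.84). For single members the closest gene was AT5G50150 for KCS1 (r = 0.98), AT1G27030 for KCS6 (0.99), AT4G29030 for CER1 (0.98) and ATG8G for CER2 (0.96), over the same 8 group means. Many other genes came close: r was above 0.9 for 49 candidates with KCS1, 245 with KCS6, 39 with CER1 and 11 with CER2. Being the closest of 8963 candidates over 8 points does not set a gene apart.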

How the data were processed

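RNA from whole seedlings was measured in 24 libraries of 8 groups. The authors deposited a single table of FPKM values, written to 2 decimals. Per the submitters' processing notes, the tools were FastQC, cutadapt, STAR, HTSeq and DESeq2 with the TAIR10 build, with no versions given in the sources used here. How FPKM was derived from reads, and how reads shared between genes were counted, is not stated.

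Values were analysed as log2(FPKM + 1) with limma 3.58.1 in R 4.3.3: a model of 8 group means with variances moderated along expression level, and Benjamini-Hochberg adjustment over the 19126 genes with a mean of at least 1 FPKM, within each of 13 contrasts. A call is an adjusted p below 0.05. The fit was tested on simulated data. The members, the gene lists and the rule for named genes were chosen with earlier results of these data known. All members are named, with up to 4 called genes of each other list in a contrast and up to 2 where none was called. Likeness used genes with a mean of at least 5 FPKM and a range of group means of at least 0.5 log2 units, and the average of the 8 members tested. The nearest genes of the other members are not reported here.

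Depth was estimated from the steps of low FPKM values in short genes (no more than 900 exonic bases and 6 reads), using TAIR10.1 gene lengths. Of these values, 33.2 to 39.8% per library lay within 0.1 read of a whole number, so depths and read numbers are rough and the values were not turned into counts. Promoter windows, protein identities and names come from RefSeq's TAIR10.1 annotation, with Python 3.11.15 and Biopython 1.88. Alternatives were the groups compared alone, rescaling by the median of ratios, pseudocounts of 0.1 and 5, a mean of at least 5 FPKM, no filter, no variance trend, the replicate number as a block, and each library left out in turn.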

Additional observations from a re-analysis of the deposited data

How the results depend on the processing

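Of 1611 alternative values for the 8 members tested, 1532 kept their side of the threshold, 61 lost a call, 18 gained one and 0 calls changed direction. Of the 15 calls of single members, 4 stayed in every alternative run (KCS1 after shade in WT, KCS6 in asf1ab in both lights and CER1 in white-light asf1ab). Counts of members called moved in several runs, the following among them. With only the groups compared in the fit, 2 were called for pif7 minus WT in shade and 1 for hira minus WT in shade, against 0 each. In that fit asf1ab minus WT lost CER2 in white light, and in shade it lost CER1 and CER3 and gained KCS2. Shade in hira lost CER3 and gained KCS5 there. Rescaling by the median of ratios gave 0 for shade in hira, against 3, and 1 for pif7 minus WT in shade, against 0. It also lost CER2 for shade in WT (adjusted p = 0.05075, limma) and CER3 for asf1ab minus WT in shade. It gained KCS20 for asf1ab minus WT in white light, and for shade in pif7 it lost CER3 and gained KCS2. A pseudocount of 5 lost KCS2 for shade in WT, and the fit with no variance trend lost CER2 for shade in hira. KCS2 was not tested with a mean of at least 5 FPKM. With no filter, shade in pif7 gave 2, against 1, and the added call was CER4, at 0 to 0.3 FPKM. Shade in WT then gave 2, without KCS2 (adjusted p = 0.0569), shade in hira 2, without CER2 (adjusted p = 0.0687), and asf1ab minus WT in shade 4, without CER3 (adjusted p = 0.0502). The run without white-light hira replicates 1 and 2 leaves replicate 3 alone in its group, so its count is not given. With each library left out in turn, counts were 1 to 2 for shade in WT (3 with all), 0 to 1 in pif7 (1), 0 to 2 in asf1ab (0) and 0 to 2 in hira (3). They were 0 to 2 for hira minus WT in white light (0), 2 to 4 for asf1ab minus WT in shade (5) and 2 to 4 in white light (3). The labels do not say that a replicate number marks a batch. Over 12 same-numbered shade and white-light pairs, deviations from group means correlated at -0.01 to 0.19, with 5 above 0.1. Of the 12, 9 correlated best with their own number, so these values do not show that pairing is absent. Samples were treated as unpaired because the labels state no pairing, and the replicate block was run as an alternative. With the replicate block, shade in WT and shade in hira gave 2 calls each and no other count moved. The cause of these shifts was not tested. Members are covered by few libraries per group, and KCS2 also by few reads, which limits what differences can be seen. CER4 had an estimated 0 to 9 reads per library, and MAH1 was listed at 0.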
